A study of Rattus norvegicus with 16 samples.

Results

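The 2 states compared here were whole sciatic nerve of the rat 5 days and 3 days after a crush, each measured in 2 RNA-seq libraries, which are 4 of the 16 libraries of the series and 4 of its 8 whole nerve libraries. All samples taken at those 2 days were chosen by their labels, and no measured value entered the choice. The nerves were crushed at postnatal day 18, and RNA was taken from the tissue distal to the crush without dissociation, from at least 10 nerves per sample. The other whole nerve groups were uncrushed nerves at postnatal day 18 and nerves 7 days after crush, and the same 4 groups exist for Schwann cells purified by immunopanning (capture on dishes coated with antibodies). The labels give no strain, genotype or treatment beyond the crush, and no sham surgery. Animals at day 5 were also 2 days older than animals at day 3, so time after crush and age cannot be told apart. Nerves were pooled within a sample, and the labels number the samples of a group without saying whether they came from separate animals, so p-values measure only the spread between these samples.

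A crushed axon degenerates distal to the injury. Schwann cells, the glia that wrap peripheral axons, then shed and digest their myelin, divide, and take on a repair state in which they release growth factors. Macrophages enter from the blood and clear debris, and fibroblasts and vessels remodel the tissue through which axons regrow. Days 3 and 5 both fall inside this period, and the comparison asks which genes changed between them across the whole tissue, where RNA of all these cells is mixed. In such bulk samples fewer cells of a type and less RNA per cell cannot be told apart.

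Between day 3 and day 5, 1828 of 15831 genes tested (11.5%) were called at an adjusted p below 0.05, 899 higher at day 5 (5.68%) and 929 lower (5.87%). The test was edgeR's quasi-likelihood test on the authors' expected counts, which are estimates of the fragments from each gene, with the Benjamini-Hochberg adjustment and the spread estimated over the 8 whole nerve libraries. Most changes were moderate: 245 of the called genes were at least 2-fold higher and 187 at least 2-fold lower, and the median size of a called log2 fold change was 0.64 among the higher and 0.66 among the lower genes. The median over all tested genes was -0.03. Each result rests on few libraries. Left without day 3 replicate 1 or 2, the same test called 573 or 510 genes, and without day 5 replicate 1 or 2 it called 652 or 568. In these fits the lone library of a day is assumed to vary like the other groups. Of the 1828 called genes, 340 were called in all 4 of these fits, and all 1828 kept their direction in each. For a single gene, the smallest two-sided p of an exact permutation test in groups of 2 is 0.333. A number in brackets after a gene name is its log2 fold change of day 5 minus day 3. Levels are given as FPKM, fragments scaled to gene length and to the fragments of the library, and the FPKM values of the 2 days did not overlap for 9149 of the tested genes (57.8%). Of the called genes 897 of the 899 higher and 929 of the 929 lower did not overlap, so such separation adds little to a call.

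Depth was 18526827 and 20203912 expected counts in the day 3 libraries and 15674976 and 17342011 at day 5. Genes of the mitochondrial genome took 6.24% to 6.63% of the counts in these 4 libraries and Rn18s, which encodes 18S ribosomal RNA, held 2.11% to 3.54%. The label of whole nerve held against markers: S100b, Pdgfra, Cdh5 and Csf1r, which mark Schwann cells, fibroblasts, endothelial cells and macrophages, stood between 37.2 and 1471 FPKM in all 4 libraries.

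**Figure D1:**
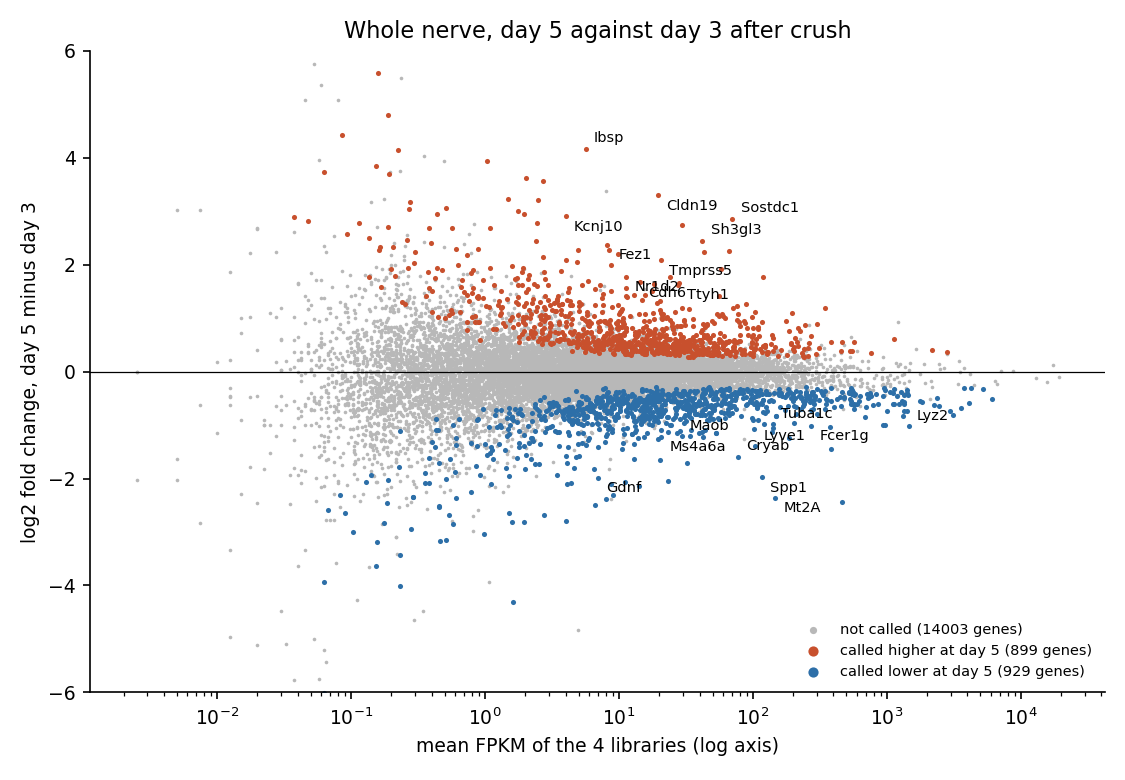
Log2 fold change of day 5 minus day 3 in whole nerve (vertical) against the mean FPKM of the 4 libraries (horizontal, log axis), 1 point per tested gene. Colour marks the 899 genes called higher and the 929 called lower, the 20 genes with the lowest adjusted p are labelled, and 24 genes beyond 6 on the vertical axis and 6 genes with a mean FPKM of 0 are not drawn.

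The 10 genes with the lowest adjusted p among those that rose had varied roles. Cldn19, the tight junction claudin of Schwann cells, stood at 4.96 and 4.05 FPKM at day 3 and 34.0 and 35.4 FPKM at day 5, a 9.86-fold rise (log2 fold change 3.30 ± 0.14 (SE), adjusted p = 3.32e-06). Sh3gl3, an endophilin that bends membranes during endocytosis, stood at 12.6 and 13.4 FPKM at day 3 and 68.1 and 73.7 FPKM at day 5 (log2 fold change 2.45 ± 0.11 (SE), adjusted p = 3.32e-06). The 2 groups were far apart for both genes. Tmprss5, a membrane serine protease, Sostdc1, a secreted inhibitor of BMP and Wnt signals, and Kcnj10, an inwardly rectifying potassium channel of glia, rose by log2 fold changes of 2.08, 2.86 and 2.91. Ibsp, the secreted bone sialoprotein, went from 0.590 and 0.590 FPKM at day 3 to 9.63 and 11.7 FPKM at day 5 (log2 fold change 4.17 ± 0.23 (SE), adjusted p = 1.40e-05). Also among the 10 were the cadherin Cdh6 (1.67), the kinesin adaptor Fez1 (1.99), the tweety family membrane protein Ttyh1 (1.62) and the nuclear receptor Nr1d2 (1.40). Of the called genes with at least 1 FPKM in both day 5 libraries, the largest rises also included Lrtm2 (3.95), the peptide hormone gene Cck (3.57), the melanin synthesis enzyme Dct (3.21), the myelin-associated cytoskeletal protein Ermn (3.00) and albumin, Alb (2.94), all of which stood below 1 FPKM in both day 3 libraries. With each library left out in turn, the calls of Cldn19, Sh3gl3, Tmprss5, Sostdc1, Kcnj10, Ibsp, Cdh6, Fez1, Ttyh1, Nr1d2, Lrtm2, Dct and Ermn held in all 4 fits, and Cck and Alb lost the call in at least 1, with adjusted p up to 0.120. In these fits the log2 fold change of Cck ranged from 2.93 to 4.59 and that of Alb from 2.32 to 3.97, in both lowest without day 3 replicate 2 and highest without day 3 replicate 1.

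The 10 genes with the lowest adjusted p among those that fell included Lyz2, Fcer1g and Gdnf, which are described with their lists below. Spp1, the secreted phosphoprotein osteopontin, stood at 166 and 206 FPKM at day 3 and 46.0 and 49.1 FPKM at day 5 (log2 fold change -1.97 ± 0.12 (SE), adjusted p = 1.89e-05). Lyve1, a hyaluronan receptor of lymphatic endothelium and of some tissue macrophages, stood at 156 and 147 FPKM at day 3 and 59.0 and 55.7 FPKM at day 5 (log2 fold change -1.40 ± 0.09 (SE), adjusted p = 4.55e-05). In both genes every day 3 library lay above every day 5 library. Mt2A, a metal-binding metallothionein, fell from 210.4 and 277 FPKM at day 3 to 47.4 and 51.5 FPKM at day 5 (log2 fold change -2.35 ± 0.17 (SE), adjusted p = 6.31e-05), and its relative Mt1m gave a log2 fold change of -2.38. Cryab, the small heat shock protein alpha B-crystallin, had 126 and 106 FPKM at day 3 and 38.8 and 38.7 FPKM at day 5 (log2 fold change -1.59 ± 0.12 (SE), adjusted p = 6.32e-05). The tubulin gene Tuba1c fell by 0.98 on the log2 scale, the monoamine oxidase Maob by 1.20, and Ms4a6a, a membrane protein of myeloid cells, by 1.21. Among called genes with at least 1 FPKM in both day 3 libraries, the largest falls included those of Vsig4, a complement receptor of resident macrophages (-4.31), the nuclear receptor Nr0b1 (-3.03), Ndufa10l1 (-2.69) and the epoxide hydrolase Ephx2 (-2.65), none of which reached 6 FPKM in any of the 4 libraries. Left-out libraries ended the call of Mt1m and Nr0b1 in at least 1 of the 4 fits, with adjusted p up to 0.236, and in none for Spp1, Lyve1, Mt2A, Cryab, Tuba1c, Maob, Ms4a6a, Vsig4, Ndufa10l1 and Ephx2.

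Most genes of mitosis fell. Of 40 tested genes of mitosis and cytokinesis, 30 were called lower and 0 higher, beside 5.87% and 5.68% of all genes, and the median log2 fold change of the list was -0.58 against -0.03 over all genes. All 40 had a negative value. Foxm1, the transcription factor that drives genes of the G2 phase and mitosis, stood at 6.48 and 7.15 FPKM at day 3 and 3.18 and 2.94 FPKM at day 5 (log2 fold change -1.16 ± 0.13 (SE), adjusted p = 0.000842). Mki67, the chromosome surface protein used as a proliferation marker, stood at 68.7 and 71.1 FPKM at day 3 and 40.8 and 49.1 FPKM at day 5 (log2 fold change -0.63 ± 0.11 (SE), adjusted p = 0.00508). Both genes were separated between the days, and both remained above their means in uncrushed nerve at day 5, which were 0.560 FPKM for Foxm1 and 5.97 FPKM for Mki67. Cyclin B1, Ccnb1, and its partner kinase Cdk1 gave log2 fold changes of -0.47 and -0.45. Racgap1, a part of the complex that builds the cleavage furrow, and Mybl2, an activator of G2 and mitosis genes, fell by 1.00 and 0.92. Of DNA replication genes 18 of 40 were called lower and 0 higher, with a list median of -0.57. Rrm2, the small subunit of the ribonucleotide reductase that makes deoxynucleotides, stood at 152 and 153 FPKM at day 3 and 89.1 and 103 FPKM at day 5 (log2 fold change -0.67 ± 0.10 (SE), adjusted p = 0.00264). The replication clamp Pcna fell by 0.43 on the log2 scale, the helicase subunit Mcm2 by 0.50, and Ccne2 and Dut, which serve entry into S phase and nucleotide supply, by 0.89 and 0.86. The counts depended on each library: with 1 left out, 7 to 16 of the mitosis genes and 3 to 7 of the replication genes were called, all lower. The calls of Foxm1 and Rrm2 held whichever library was left out, and Mki67, Ccnb1, Cdk1, Racgap1, Mybl2, Pcna, Mcm2, Ccne2 and Dut lost theirs in at least 1 of the 4 fits, with adjusted p up to 0.193. Macrophage markers, given below, fell over the same days, and their part in these values was not tested.

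The promoters of the 3 genes that defined the mitosis list are shown because genes of G2 and mitosis are known to share short promoter elements, the CHR with the letters TTTGAA and the CCAAT box. Each is 250 bases before to 50 bases after the start of the gene, from RefSeq on assembly GRCr8, written 5′ to 3′ on the strand of the gene with both elements in capitals on either strand (ATTGG and TTCAAA are their reverse forms). Ccnb1 lies at chr2:33655176-33655475 on the minus strand, Cdk1 at chr20:19265043-19265342 on the plus strand and Mki67 at chr1:199952544-199952843 on the minus strand.
Ccnb1: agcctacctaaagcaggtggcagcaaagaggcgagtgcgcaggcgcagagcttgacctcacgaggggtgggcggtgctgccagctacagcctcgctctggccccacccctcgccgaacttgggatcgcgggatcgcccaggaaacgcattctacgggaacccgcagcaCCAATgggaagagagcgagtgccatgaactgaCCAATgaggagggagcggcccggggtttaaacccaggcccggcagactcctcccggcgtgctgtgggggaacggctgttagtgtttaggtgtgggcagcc
Cdk1: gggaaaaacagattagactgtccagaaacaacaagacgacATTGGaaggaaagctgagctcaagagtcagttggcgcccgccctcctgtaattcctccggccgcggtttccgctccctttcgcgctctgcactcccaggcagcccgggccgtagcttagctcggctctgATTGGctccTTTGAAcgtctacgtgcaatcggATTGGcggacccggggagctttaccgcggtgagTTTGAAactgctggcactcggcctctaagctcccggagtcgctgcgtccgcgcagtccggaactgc
Mki67: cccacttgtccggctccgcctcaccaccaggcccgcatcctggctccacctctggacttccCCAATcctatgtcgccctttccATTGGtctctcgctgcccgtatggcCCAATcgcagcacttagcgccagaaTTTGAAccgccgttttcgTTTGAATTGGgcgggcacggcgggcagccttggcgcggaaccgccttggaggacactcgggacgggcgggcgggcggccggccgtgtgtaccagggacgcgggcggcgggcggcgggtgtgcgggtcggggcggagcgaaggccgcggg
The Ccnb1 window held 2 CCAAT boxes and 0 CHR letters, that of Cdk1 held 3 and 2, and that of Mki67 held 4 and 2, of which 1 pair shares 1 base. Of the 40 mitosis genes 34 had a promoter in the table. The CHR letters were in 24 of these (70.6%) against 18.1% of 27457 promoters, and CCAAT was in 24 (70.6%) against 37.7%. Both were in 19 (55.9%) against 7.25%. No test was made, and a match of letters is not a site of binding.

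Macrophage markers fell. Of 24 tested markers 22 were called lower and 0 higher, beside 5.87% and 5.68% of all genes, with a median log2 fold change of -0.79, and the summed level of the list was 3960 and 3910 FPKM at day 3 and 2205 and 2073 FPKM at day 5. Lyz2, the lysozyme of myeloid cells, stood at 1972 and 1926 FPKM at day 3 and 1003 and 923 FPKM at day 5 (log2 fold change -1.02 ± 0.08 (SE), adjusted p = 0.000121). Cd163, the scavenger receptor for haemoglobin, stood at 61.7 and 58.5 FPKM at day 3 and 27.0 and 28.9 FPKM at day 5 (log2 fold change -1.10 ± 0.12 (SE), adjusted p = 0.000519). Both genes were about 2-fold lower at day 5 in every pair of libraries. The endolysosomal protein Cd68 fell by 0.88 on the log2 scale, the Fc receptor gamma chain Fcer1g by 1.02, the growth factor receptor Csf1r by 0.61, the integrin Itgam by 1.20 and the fractalkine receptor Cx3cr1 by 1.09. Adgre1, which encodes the F4/80 antigen, gave -0.37 with an adjusted p of 0.102 and was not called. When all 16 libraries entered the fit, 8 of the 24 were called lower, and with 1 whole nerve library left out 13 to 16 were. Of these, Lyz2, Cd163, Cd68, Fcer1g and Itgam kept the call with each library left out, and Csf1r and Cx3cr1 did not, with adjusted p up to 0.114. The neutrophil gene S100a9 stood at 3.45 and 0.650 FPKM at day 3 and 2.66 and 0.190 FPKM at day 5 without a call, and 3 of 7 tested neutrophil markers were called lower, namely Retnlg (-2.49), the receptor Csf3r (-1.40) and Lcn2 (-0.87), each of which lost the call in at least 1 fit with a library left out. Lymphocyte markers gave 0 calls of 12 tested, with Cd3e at 0.270 and 0.180 FPKM at day 3 and 0.600 and 0.210 FPKM at day 5 and the killer cell granule gene Nkg7 at a log2 fold change of 0.85. Mast cell markers gave 0 calls of 9, and the protease Cpa3 stood at 257 and 225 FPKM at day 3 and 319.6 and 249.9 FPKM at day 5, with log2 fold changes of 0.24 for Cpa3, 0.08 for the receptor Kit and 0.14 for the IgE receptor chain Ms4a2. Unadjusted p-values below 0.05 numbered 0 among the lymphocyte and 2 among the mast cell markers, and DESeq2 called 0 and 0.

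Lists of immune signals and receptors gave mostly lower calls, though most of their members were not called. The share of all genes called was 5.87% lower and 5.68% higher. Of 33 tested chemokines and interleukins, 9 were called lower and 0 higher (median -0.37). Ccl2, the main attractant of monocytes, stood at 489 and 640.4 FPKM at day 3 and 205 and 210.2 FPKM at day 5 (log2 fold change -1.46 ± 0.16 (SE), adjusted p = 0.000567). Both day 5 libraries lay below both day 3 libraries by more than 2-fold. Its neighbour Ccl7 fell by 1.71 on the log2 scale and Ccl20 by 2.81, while the cytokine Il1b, at 1.78 and 1.79 FPKM at day 3 and 1.43 and 1.33 FPKM at day 5, was not called (-0.37). Phagocytic receptors and bridging proteins gave 10 lower and 1 higher of 24: the phosphatidylserine receptor Timd4 (-2.81), the lipoprotein receptor Olr1 (-1.38) and the Fc receptor Fcgr1a (-0.96) fell most, and Adgrb1 rose (2.58) at levels of 0.22 FPKM or less. The receptor kinases Mertk (-0.38) and Axl (0.02) and the scavenger receptor Cd36 (0.24) were not called. Complement genes gave 8 lower and 0 higher of 23, led by C1qb (-0.91), Cfb (-0.90) and C1qa (-0.73), while the central component C3 (-0.37) was not called. Lysosome and lipid clearance genes gave 6 lower, among them Ctsz (-0.80), Gpnmb (-0.52), Npc2 (-0.48) and Lipa (-0.44), and 1 higher, the lipoprotein Apoe, at 647 and 689.6 FPKM at day 3 and 855 and 850.5 FPKM at day 5 (0.34). Lamp1 and Ctsd gave -0.17 and -0.37 without a call. Antigen presentation by MHC class II was divided: Cd74, the invariant chain, stood at 174 and 170.3 FPKM at day 3 and 214 and 242 FPKM at day 5 (log2 fold change 0.42 ± 0.09 (SE), adjusted p = 0.0193) and RT1-Db1 also rose (0.57), RT1-Da (0.31) and RT1-Ba (0.40) were not called, and RT1-DMb (-1.35), Ifi30 (-0.67) and Irf8 (-0.52) were among 4 that fell. Interferon-stimulated genes gave 1 call in each direction of 29 tested, no larger a share than over all genes, Mx2 (0.80) and Gbp4 (-1.33), and Mx1 (-0.17) and Isg15 (-0.77) were not called. The part of the lower macrophage markers in these values was not tested. Whichever library was left out, Ccl2, Fcgr1a and C1qb kept the call. The other called genes named here lost it in at least 1 of the 4 fits, with adjusted p up to 0.451. Ccl20 was called in 0 of the 4 fits, with values from -3.68 to -1.73, and Ccl7 in 1, with values from -2.13 to -1.09, and both changes were smallest without day 3 replicate 2. With 1 library left out the lower calls numbered 2 to 3 of the chemokines and interleukins, 5 to 7 of the phagocytic genes, 1 to 5 of complement, 1 to 2 of lysosome genes and 0 to 2 of MHC class II genes, and with all 16 libraries in the fit they numbered 4, 5, 3, 5 and 1.

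**Figure D2:**
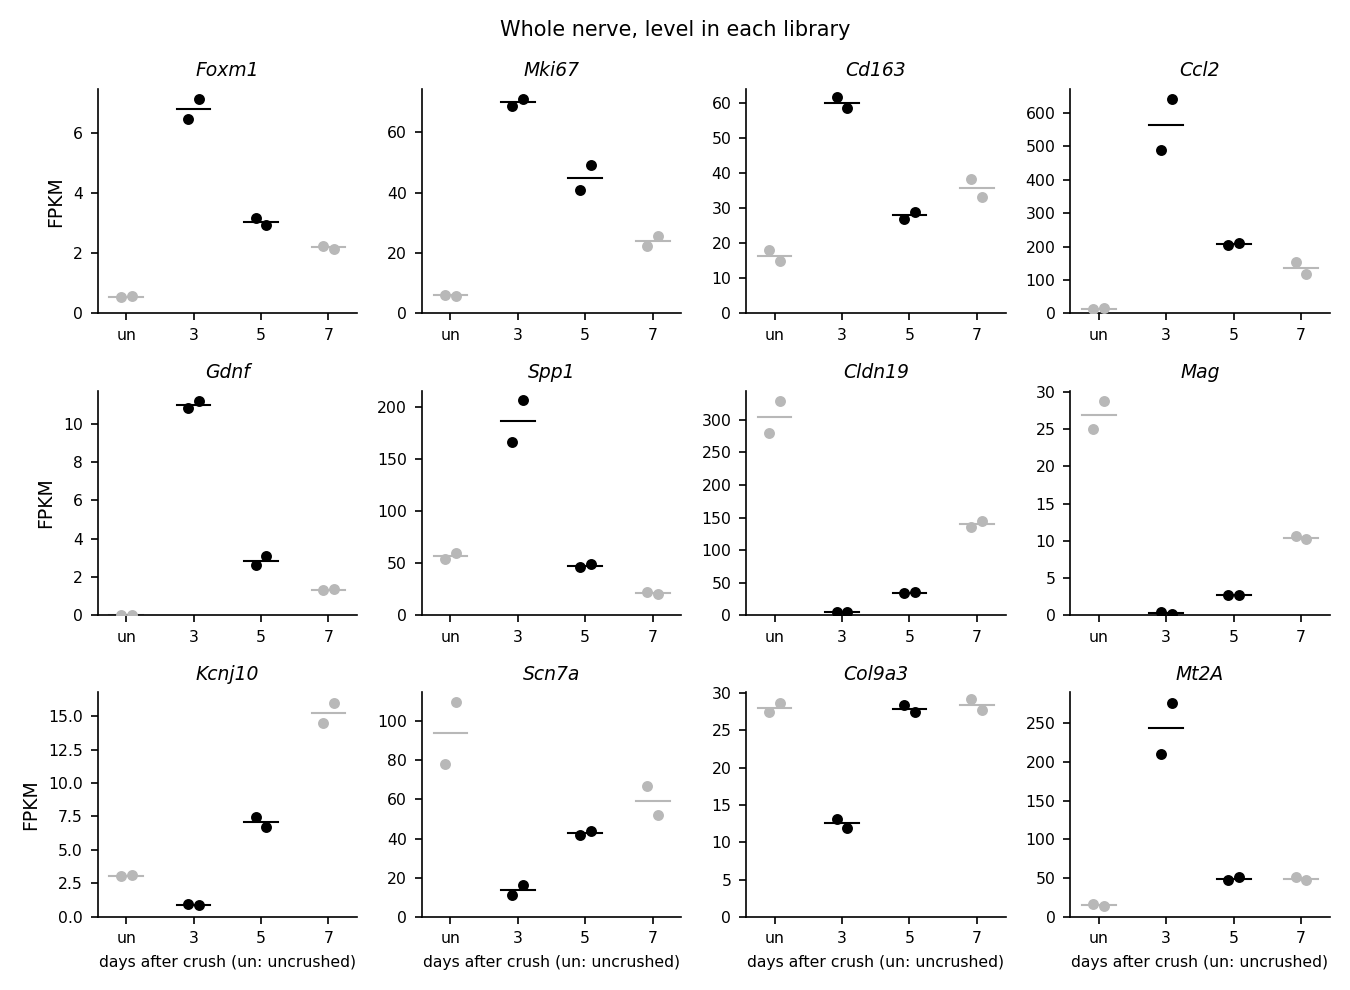
FPKM (vertical, from 0) of 12 genes in the 8 whole nerve libraries by days after crush (horizontal, un for uncrushed), where points are libraries and bars their means, with days 3 and 5 in black and the other groups in grey. In every panel both day 5 libraries lie on the same side of both day 3 libraries, below them for Foxm1, Mki67, Cd163, Ccl2, Gdnf, Spp1 and Mt2A and above them for Cldn19, Mag, Kcnj10, Scn7a and Col9a3. All 12 were picked from called genes, and 57.8% of all tested genes were separated in this way.

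Calls among Schwann cell and myelin genes were mostly higher. Of 20 myelin genes 9 were called higher, 2 lower and 9 neither, beside 5.68% of all genes higher and 5.87% lower (median 0.44). Mag, the adhesion protein of the inner myelin membrane, stood at 0.370 and 0.210 FPKM at day 3 and 2.64 and 2.76 FPKM at day 5 (log2 fold change 3.23 ± 0.23 (SE), adjusted p = 5.39e-05), and Prx, the periaxin of the outer membrane, at 2.12 and 1.29 FPKM at day 3 and 7.84 and 8.54 FPKM at day 5 (log2 fold change 2.27 ± 0.18 (SE), adjusted p = 0.000115). Day 5 levels were above day 3 in both genes and yet far below the means in uncrushed nerve, 26.9 FPKM for Mag and 257 FPKM for Prx. Some abundant myelin proteins moved less: Pmp22 rose by 0.55 and Mbp by 0.32. Egr2, the transcription factor of the myelinating state, stood at 4.38 and 6.10 FPKM at day 3 and 9.41 and 10.9 FPKM at day 5 (log2 fold change 0.95 ± 0.17 (SE), adjusted p = 0.00616). Drp2, a partner of Prx, and Nfasc, a cell adhesion protein of nodes and paranodes, were the 2 that fell, by 0.95 and 1.00. Among 14 Schwann lineage markers 4 were called higher, 0 lower and 10 neither. S100b stood at 964 and 832 FPKM at day 3 and 1278 and 1471 FPKM at day 5 (log2 fold change 0.61 ± 0.11 (SE), adjusted p = 0.00654), the secreted hedgehog ligand Dhh at 27.9 and 31.3 FPKM at day 3 and 52.5 and 56.7 FPKM at day 5 (log2 fold change 0.88 ± 0.09 (SE), adjusted p = 0.000519), and Ncam1 rose by 0.90, while the lineage factor Sox10 stood at 27.8 and 27.9 FPKM at day 3 and 32.6 and 35.5 FPKM at day 5 and was not called (0.30, adjusted p = 0.283). The summed level of the lineage markers was 1856 and 1752 FPKM at day 3 and 2111 and 2471 FPKM at day 5, and the part of that rise in the myelin values was not tested. With 1 library left out, 5 to 7 of the myelin genes and 1 to 4 of the lineage markers were called higher. The calls of Mag, Prx and Dhh held whichever library was left out, and Pmp22, Mbp, Egr2, Drp2, Nfasc, S100b and Ncam1 lost theirs in at least 1 of the 4 fits, with adjusted p up to 0.269.

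Of 24 tested repair genes of Schwann cells, 7 were called lower, 1 higher and 16 neither, beside 5.87% of all genes lower and 5.68% higher (median -0.27). Gdnf, the glial growth factor for motor neurons, stood at 10.8 and 11.2 FPKM at day 3 and 2.60 and 3.10 FPKM at day 5 (log2 fold change -1.98 ± 0.16 (SE), adjusted p = 0.000115). Its libraries did not overlap between the days, and it was near 0 in uncrushed nerve, with a mean of 0.0100 FPKM. Its co-receptor Gfra1 was the gene that rose, from 171 and 166 FPKM at day 3 to 236 and 302 FPKM at day 5 (log2 fold change 0.82 ± 0.11 (SE), adjusted p = 0.00161). Jun, the transcription factor of the repair state, stood at 49.0 and 52.0 FPKM at day 3 and 38.4 and 40.9 FPKM at day 5 and was not called (-0.34, adjusted p = 0.0804), and Shh gave -1.04 (adjusted p = 0.122). Calls of Gdnf, Gfra1 and Spp1 held with each library left out, and the lower calls of the list then numbered 4 to 5.

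Of 24 cholesterol synthesis genes 4 fell and 1 rose, beside 5.87% and 5.68% of all genes. Idi1 and Stard4 were among those that fell, by 0.97 and 0.57 on the log2 scale, while Hmgcs1, the synthase at the entry of the pathway, rose from 46.3 and 46.2 FPKM at day 3 to 65.8 and 60.2 FPKM at day 5 (log2 fold change 0.45 ± 0.08 (SE), adjusted p = 0.00874). Sqle (-0.52), which catalyses a rate-limiting step, was not called. Of 23 genes of fatty acid and lipid synthesis 4 rose and 0 fell, among them Ugt8 (0.49) and Gal3st1 (1.33), which make the galactolipids of myelin, and the regulator Srebf1 (0.59). Fasn (-0.08), Scd (0.65) and Acaca (-0.11) were not called. None of 17 cholesterol genes with a promoter held the sterol element letters TCACCCCAC, which are in 0.495% of all promoters, and 15 of 20 interferon-stimulated genes held GAAANNGAA (75%, against 9.50% of all). With 1 library left out, 2 cholesterol genes were called lower and 0 to 1 higher, and 0 to 2 lipid synthesis genes higher. Each of Idi1, Stard4, Hmgcs1, Ugt8, Gal3st1 and Srebf1 lost the call in at least 1 fit with a library left out, with adjusted p up to 0.221.

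Matrix genes gave calls in both directions, except that called collagens were all higher. Of 37 collagen genes 10 were called higher, 0 lower and 27 neither (median 0.28). The lowest value of the list was -12.4, without a call. The fibroblast list, which shares Col1a1, Col1a2 and Col3a1 with the collagens, had the same lowest value. Col9a3, a chain of a fibril-associated collagen, stood at 13.1 and 12.0 FPKM at day 3 and 28.4 and 27.4 FPKM at day 5 (log2 fold change 1.15 ± 0.10 (SE), adjusted p = 0.000122), and Col3a1, a main fibrillar collagen, at 1857 and 1904 FPKM at day 3 and 2543 and 2417 FPKM at day 5 (log2 fold change 0.40 ± 0.08 (SE), adjusted p = 0.0109). The fold was small for Col3a1, and both of its day 5 libraries lay above both day 3 libraries. Col9a1 and Col20a1 rose by 1.00 and 1.02 at levels below 8 FPKM, and Col1a1 (0.09) and Col4a1 (0.28) were not called. Elastic fibre and matricellular genes gave 5 higher and 4 lower of 43: elastin, Eln (0.45), Sparcl1 (0.83) and the small proteoglycans Fmod (0.91) and Kera (1.36) rose, and Thbs1 (-0.69), Cyr61 (-0.98) and Wisp2 (-1.34) fell, with Fn1 (-0.22), Postn (0.50) and Dcn (0.04) not called. Proteases and inhibitors gave 5 higher and 4 lower of 35. Adamts20 and Adamts17, secreted metalloproteases, rose by 1.80 and 1.76 and the membrane metalloprotease Mmp15 by 0.74. Serpine2, an inhibitor of thrombin and plasminogen activators, fell from 476 and 532 FPKM at day 3 to 223 and 271 FPKM at day 5 (log2 fold change -1.03 ± 0.14 (SE), adjusted p = 0.00222). Mmp11 (-1.40), Adamts9 (-0.43) and Timp1 (-0.37) also fell, and Mmp2 (0.27) and Mmp9 (-1.75) were not called. Beside these counts stand 5.68% of all genes called higher and 5.87% lower. With 1 library left out, 2 to 3 collagens were called higher and 0 to 1 lower, 1 to 2 elastic fibre and matricellular genes higher and 0 to 2 lower, and 3 proteases and inhibitors higher and 1 to 2 lower. Whichever library was left out, Col9a3, Sparcl1, Adamts20, Adamts17, Mmp15 and Serpine2 kept the call. The other called genes named here lost it in at least 1 of the 4 fits, with adjusted p up to 0.279.

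Other resident cells showed calls in both directions. Over all genes 5.68% were called higher and 5.87% lower. Fibroblast markers gave 2 higher and 3 lower of 19: Etv1 (0.40) and Col3a1 rose, Pdgfra (-0.33), Sfrp2 (-0.76) and Sfrp4 (-0.45) fell, and Dcn stood at 2486 and 2419 FPKM at day 3 and 2536 and 2526 FPKM at day 5. The lowest value among these markers was -12.4, without a call. Endothelial markers gave 2 in each direction of 19. The TGF-beta co-receptor Eng fell from 26.1 and 25.3 FPKM at day 3 to 15.4 and 13.3 FPKM at day 5 (log2 fold change -0.84 ± 0.11 (SE), adjusted p = 0.00152) and Plvap, a protein of fenestrae, fell by 0.82, whereas the transcription factor Erg and the phosphatase Ptprb rose by 0.57 and 0.45. Pecam1 (-0.18), Cdh5 (0.24) and the VEGF receptor Flt1 (-0.01) were not called. Pericyte and smooth muscle markers were divided in the same way, with Mcam (0.85) and Rgs5 (0.43) higher, the contractile genes Acta2 (-0.65) and Tagln (-0.51) lower and Pdgfrb (0.25) not called. Of 7 perineurial markers the integrin Itgb4 rose (0.52), and Slc2a1 (-0.26) and Cldn1 (0.07) were not called. Of 21 angiogenic signals Angptl4 fell (-1.02), and Vegfa (-0.21), Angpt2 (-0.16) and Apln (-0.28) were not called. Only Eng and Mcam kept the call in all 4 fits that left out a library. The other called genes named here lost it in at least 1, with adjusted p up to 0.304.

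Of 10 fat cell markers 5 were called higher at day 5 and 0 lower, beside 5.68% and 5.87% of all genes, with a median of 0.80. Pck1, an enzyme of glycerol synthesis in fat cells, stood at 8.76 and 6.66 FPKM at day 3 and 53.5 and 49.0 FPKM at day 5 (log2 fold change 2.73 ± 0.32 (SE), adjusted p = 0.000910), the hormone leptin, Lep, at 10.8 and 7.61 FPKM at day 3 and 31.0 and 21.1 FPKM at day 5 (log2 fold change 1.50 ± 0.28 (SE), adjusted p = 0.00887), and adiponectin, Adipoq, at 237 and 185 FPKM at day 3 and 582 and 388 FPKM at day 5 (log2 fold change 1.20 ± 0.27 (SE), adjusted p = 0.0195). In Lep and Adipoq the 2 libraries of a day lay far apart, with replicate 1 above replicate 2 at both days. The lipid droplet gene Cidec rose by 0.80 and Plin1 (0.60) was not called. The summed level of the list overlapped between the days, at 2073 and 1699 FPKM at day 3 and 2861 and 1907 FPKM at day 5. With 1 library left out, 1 to 4 of the markers were called, and Pck1 kept its call in all 4 fits. Skeletal muscle and red blood cell markers gave 0 calls of 13 and of 8 and varied within a day: the muscle actin Acta1 stood at 3.63 and 1.30 FPKM at day 3 and 3.09 and 6.37 FPKM at day 5 and the beta globin gene Hbb at 595 and 529 FPKM at day 3 and 578 and 220.0 FPKM at day 5. Their log2 fold changes were 0.97 and -0.53. Ckm (1.08), Mylpf (0.50) and Alas2 (-0.11) were not called either. Unadjusted p-values below 0.05 numbered 1 and 0 in these lists, and DESeq2 called 0 and 0.

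Most ribosomal protein genes fell, as did some genes of energy supply and chaperones. Of 74 cytosolic ribosomal protein genes 47 were called lower and 0 higher, beside 5.87% and 5.68% of all genes, with a median of -0.40 and 72 negative values. Among the larger falls, Rps20 stood at 1632 and 1873 FPKM at day 3 and 1150 and 1004 FPKM at day 5 (log2 fold change -0.74 ± 0.12 (SE), adjusted p = 0.00456). The defining genes Rpl3 (-0.14), Rps3 (-0.21) and Rplp0 (-0.27) were not called, and Rpl38 fell by 0.80. Rpl30 stood at 597 and 953 FPKM at day 3 and 153 and 140.4 FPKM at day 5 (-2.44), far outside the range of the others. Ribosomal protein genes have near-identical copies between which the estimates can split fragments, so their single values are uncertain. The lower calls numbered 44 to 57 under the other scalings and DESeq2, 30 with all 16 libraries in the fit and 13 to 16 with 1 library left out. Of 43 nuclear genes of the respiratory chain 7 fell and 1 rose: Cox7b (-0.62), Cox7a2 (-0.59), Ndufab1 (-0.53) and Ndufa4 (-0.41) were lower, the succinate dehydrogenase subunit Sdha was higher (0.48), and Cox4i1 (-0.20) and Atp5a1 (-0.07) were not called. Glycolysis gave 6 lower and 2 higher of 26. Pkm, the last kinase of the pathway, stood at 62.4 and 61.7 FPKM at day 3 and 34.0 and 34.3 FPKM at day 5 (log2 fold change -0.86 ± 0.11 (SE), adjusted p = 0.00162), and Pgk1 (-0.75), Eno1 (-0.63) and Ldha (-0.31) also fell. Aldoc (1.23) and the regulatory kinase Pfkfb3 (0.93) rose, and Hk2 (-0.24) and Pfkp (-0.09) were not called. Chaperones gave 8 lower and 1 higher of 31, with Creld2 (-0.82), Sdf2l1 (-0.74), Manf (-0.65) and Hspa5 (-0.41) of the endoplasmic reticulum lower, the cytosolic Dnaja1 higher (0.38) and Ddit3 (0.39) not called. Whichever library was left out, Rpl30, Pkm, Pgk1, Eno1 and Creld2 kept the call. The other called genes named here lost it in at least 1 of the 4 fits, with adjusted p up to 0.259. The lower calls then numbered 2 to 3 in the respiratory chain, 3 to 4 in glycolysis and 2 to 4 among chaperones. The part of the lower macrophage markers in these values was not tested.

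Ion channel and axon guidance calls were mostly higher, and immediate-early gene calls went both ways. Of 28 ion channels 5 rose and 1 fell. Scn7a, a sodium channel gene expressed in non-myelinating Schwann cells, stood at 11.2 and 16.4 FPKM at day 3 and 41.6 and 43.8 FPKM at day 5 (log2 fold change 1.66 ± 0.20 (SE), adjusted p = 0.000977), and Kcnj10 stood at 0.940 and 0.900 FPKM at day 3 and 7.46 and 6.69 FPKM at day 5 (log2 fold change 2.91 ± 0.16 (SE), adjusted p = 1.40e-05). Both were separated between the days by more than the spread within a day. Scn9a rose by 1.07 below 3 FPKM, Kcnk1 fell by 1.18, and Kcna1 (-0.64) was not called. Of 39 axon guidance genes 8 rose and 1 fell: the semaphorin receptor Plxnb3 (1.73), Sema3g (1.43) and Ephb6 (1.57) rose from below 1 FPKM, Sema4a fell (-0.65), and Sema3a (-0.54), Slit2 (0.01) and Robo1 (-0.12) were not called. Among 29 immediate-early genes 2 rose and 4 fell. Egr3 stood at 2.32 and 3.33 FPKM at day 3 and 7.94 and 9.78 FPKM at day 5 (log2 fold change 1.70 ± 0.20 (SE), adjusted p = 0.000951) and Egr2 rose as given above, Fosl1 (-1.08) and Ier3 (-0.92) fell, and Fos (-0.06), Egr1 (-0.45) and Ier2 (-1.32) were not called. In the 4 fits that left out a library, Scn7a, Kcnj10, Plxnb3 and Egr3 kept the call throughout, and Scn9a, Kcnk1, Sema3g, Ephb6, Sema4a, Fosl1 and Ier3 lost it in at least 1, with adjusted p up to 0.211. The list counts, beside 5.68% of all genes called higher and 5.87% lower, then came to 2 to 4 ion channels, 2 to 6 axon guidance genes and 1 to 2 immediate-early genes higher, and 0 to 1, 0 and 0 to 2 lower.

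**Figure D3:**
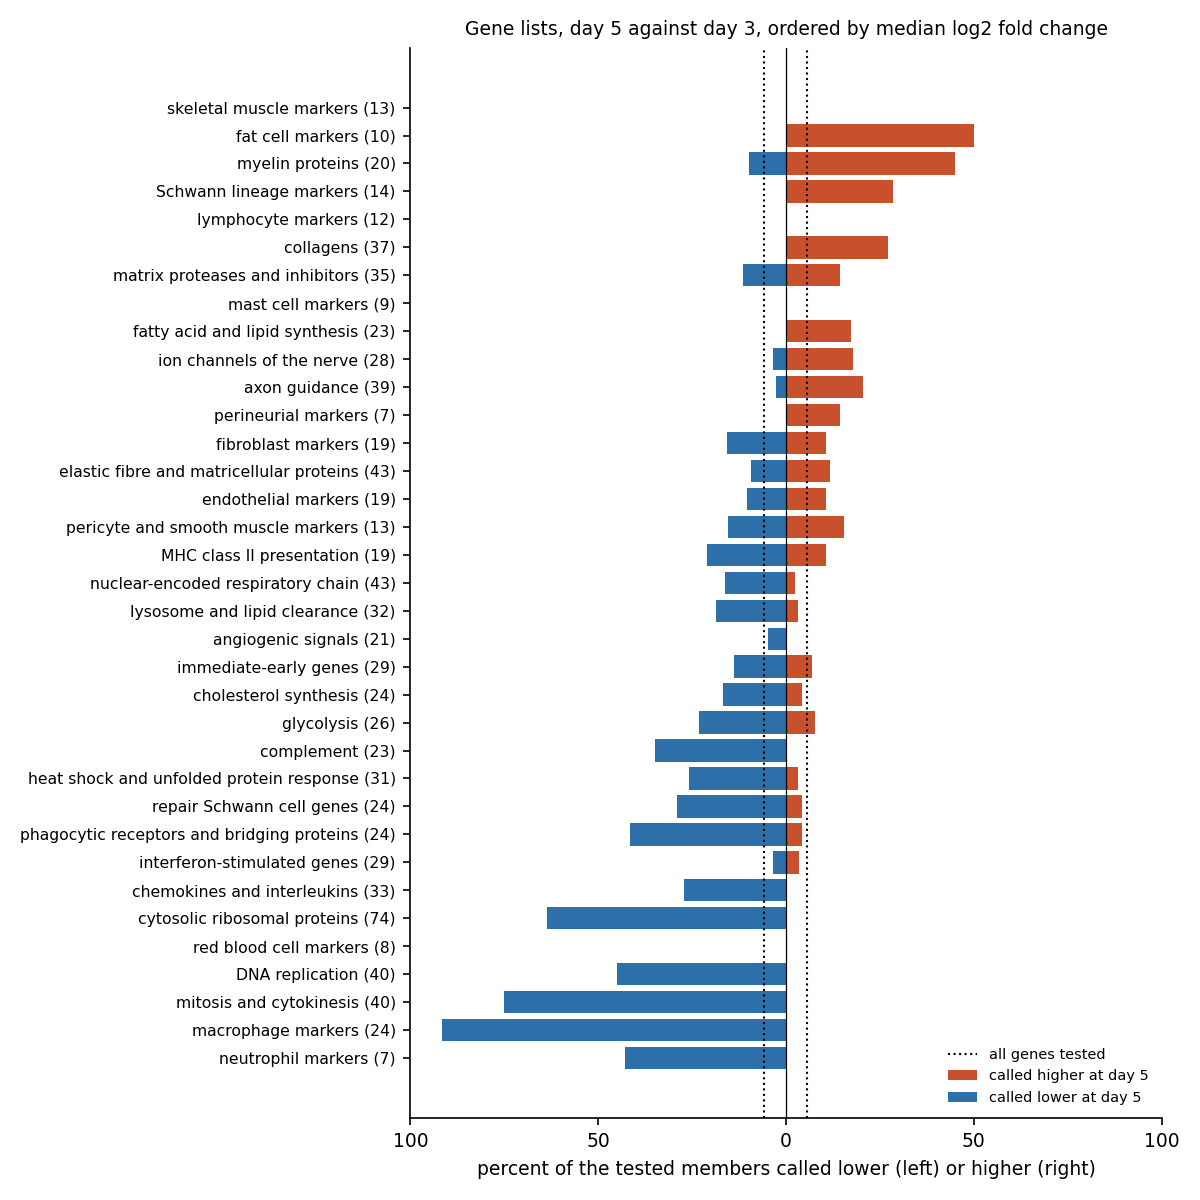
Percent of the tested members of each of the 35 gene lists (vertical, number of tested members in brackets) that were called lower (left, blue) or higher (right, red) at day 5, ordered by the median log2 fold change of the list. Dotted lines mark the 5.87% of all genes called lower and the 5.68% called higher, and macrophage, mitosis and ribosomal protein lists reach farthest to the left, with 22 of 24, 30 of 40 and 47 of 74 members called.

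The change from day 3 to day 5 was then set beside that in purified Schwann cells, in a fit of all 16 libraries that tests the difference between both changes. The difference was called for 509 of 16829 genes (3.02%), 345 with a higher (2.05%) and 164 with a lower value in whole nerve than in Schwann cells (0.975%). This split moved with the scaling, to 281 and 213 with upper quartile and 457 and 147 with median-of-ratios scaling, and was 832 and 237 with DESeq2, which tested 12964 genes. With 1 of the 8 libraries of these days left out, the count lay between 126 and 314. Dab2, an endocytic adaptor, stood at 114 and 112 FPKM at day 3 and 88.5 and 92.5 FPKM at day 5 in whole nerve with a change of -0.32, against a change of 1.97 in Schwann cells, a difference of -2.26 ± 0.16 (SE, adjusted p = 2.07e-05). Fbln5, an elastic fibre protein, gave -0.16 in whole nerve and 3.23 in Schwann cells (adjusted p = 4.18e-05). Neither gene was called in whole nerve alone. The same held for the peptidase-like Cpxm1 and the small GTPase Rhoj, with differences of -1.88 and -0.99. Ntm and Nrep rose in both kinds of sample and more in Schwann cells, with differences of -2.13 and -1.12. In the other direction, Nr1d2 rose by 1.40 in whole nerve and gave -0.30 in Schwann cells, a difference of 1.72 ± 0.14 (SE, adjusted p = 4.18e-05). The Wnt signal inhibitor Nkd2 fell by 1.78 in Schwann cells and gave -0.08 in whole nerve (adjusted p = 4.18e-05). Ltbp4, a TGF-beta binding protein, and Cdh2, N-cadherin, rose in whole nerve by 0.53 and 0.46 and fell in Schwann cells by 0.92 and 0.83. Neither rise in whole nerve kept its call with each library left out. Atp8b1 and Rbpms gave differences of 2.52 and 2.16. Lists with at least 2 members whose difference was called lower in whole nerve were ribosomal proteins (8 of 74), mitosis (6 of 40), elastic fibre and matricellular genes (4 of 43), chaperones (3 of 31), DNA replication (2 of 40), repair genes (2 of 24) and axon guidance (2 of 39), beside 0.975% of all genes. Those with at least 2 called higher were axon guidance (8 of 39), collagens (4 of 37), elastic fibre and matricellular genes (4 of 43), mast cell markers (3 of 9), ion channels (3 of 28), pericyte and smooth muscle markers (2 of 13), fatty acid and lipid synthesis (2 of 23) and lysosome genes (2 of 32), beside 2.05% of all genes. Of macrophage markers 0 differed (called by DESeq2: 1, unadjusted p below 0.05: 3). In Schwann cells these markers summed to only 17.5 and 96.75 FPKM at day 3 and 38.3 and 16.8 FPKM at day 5. At such low and uneven levels, 0 called differences do not show an equal change. Mast cell markers were low there as well, summing to 11.3 and 26.75 FPKM at day 3 and 6.82 and 7.02 FPKM at day 5. Of 899 genes called higher in whole nerve, 319 were also called higher in Schwann cells and 25 lower, and of 929 called lower, 237 were also lower and 5 higher. In Schwann cells alone 6.74% of all genes were called higher and 6.97% lower. Myelin genes are an instance: Cldn19, Mag and Prx rose in Schwann cells by 3.56, 3.10 and 3.01, and no difference was called for them. Schwann cells were purified after dissociation and whole nerve was not, so in these 16 libraries the handling and the cells sampled cannot be told apart. The paper also lists FPKM of dissociated nerve and reports a comparison with whole nerve, and those values were not used here.

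**Figure D4:**
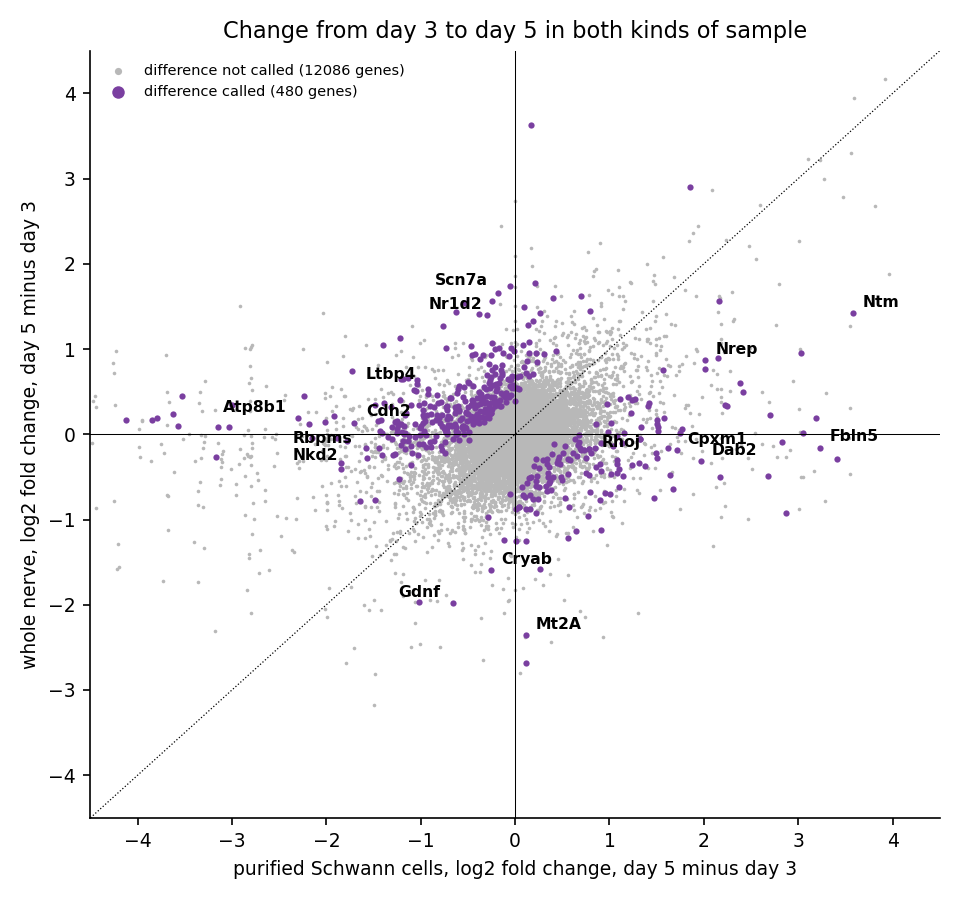
Log2 fold change of day 5 minus day 3 in whole nerve (vertical) against that in purified Schwann cells (horizontal) for 12566 genes with a mean of at least 1 FPKM over the 8 libraries of these days, 37 of which lie outside the axes. Purple points are the 480 genes among them whose difference was called, the dotted line marks equal change, and Mt2A, Cryab and Gdnf lie below it while Scn7a and Nr1d2 lie above it.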

How the data were processed

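RNA-seq of whole sciatic nerve 3 and 5 days after crush was compared, 2 libraries per day. Per the methods of the study, total RNA was converted to amplified cDNA. Molecular identifiers are not mentioned there, so floors and intervals on counts are taken to cover counting error only. The authors used STAR for alignment, with Rnor_6.0 as the rat genome, and estimated the deposited expected counts per gene with RSEM, without normalization. The deposited FPKM were made by the authors in the same step, scaled to gene length and library total. The submitters' processing notes also name CASAVA. Whether counting used strand is not given in the sources used here. A matrix of the same expected counts and a table of co-expression modules were not used.

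Expected counts of 31038 genes were rounded, scaled by TMM and filtered with filterByExpr of edgeR 4.0.16 in R 4.3.3. The quasi-likelihood test was fitted to the 8 whole nerve libraries with group as the only term, and the difference from Schwann cells was tested as an interaction in all 16 libraries. Adjustment was by Benjamini-Hochberg over all genes tested, with calls below 0.05. The standard error (SE) was taken as the absolute log2 fold change over the root of the F statistic. On simulated counts of 15513 genes for this comparison, the test recovered 70 of 100 genes changed 2-fold and 91 of 100 changed 4-fold, and 15 of 176 calls were unchanged genes. The changed genes were drawn only from those above a minimum mean level, so the recovery need not hold for genes below it. DESeq2 1.42.0 was an alternative. Others were the scaling, the filter, a replicate term, the threshold, the libraries in the fit and leaving out each library. Depth was the sum of expected counts.

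Members and the 35 gene lists (950 of 955 entries matched a gene of the tables, 8 of them by an older name) were chosen with earlier results of these data known. Genes named are the 10 with the lowest adjusted p and the 10 with the largest called change in each direction, the latter with at least 1 FPKM in every library of the higher group and more than 3 counts in at least 1 library of the lower. The 3 defining genes of each list, its 3 called members with the largest change in each direction, and the 6 genes with the lowest adjusted p for the difference in each direction were added. Mitochondrial genes and ribosomal RNA genes were left out of the rules on p, size of change and difference. Some genes the rules name are not reported here. Genes in several lists, such as Col3a1, count under each. Promoters are those of RefSeq on GRCr8. No genome of the build of the files was used. Python 3.11.15 with pandas 2.3.3, numpy 2.4.6 and matplotlib 3.10.9 served for the rest.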

Additional observations from a re-analysis of the deposited data

Results flagged for a closer look

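The values here concern a difference between whole nerve and purified Schwann cells in the change from day 3 to day 5, by the test of that difference in the fit of all 16 libraries. It was called for 509 genes. The values below are such differences on the log2 scale, whole nerve minus Schwann cells, for the named genes whose difference was called, and no explanation of them was weighed.

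Higher in whole nerve were Nr1d2 (1.72), Nr1d1 (1.59), Per1 (1.22), Rora (1.26), Nkd2 (1.73), Ltbp4 (1.47), Atp8b1 (2.52), Rbpms (2.16) and Cdh2 (1.32). Ltbp4, Cdh2 and Rora were called higher in whole nerve and lower in Schwann cells, and none of the 3 kept the whole nerve call with each library left out. The sodium channels Scn7a and Scn9a differed by 1.87 and 1.34, Kcnj10 by 1.09 and Ttyh1 by 0.95, and Scn7a stood at 154 and 102 FPKM at day 3 and 125 and 109 FPKM at day 5 in Schwann cells. Mcam (0.65), Col4a1 (0.56), Col20a1 (1.09), Scd (1.89), Gpnmb (0.73) and Pfkfb3 (1.30) followed. The mast cell genes Cpa3 and Ms4a2 differed by 3.89 and 6.15, the latter with an SE of 1.21. Their changes in whole nerve were 0.24 and 0.14, without a call. Cpa3 stood at 3.06 and 12.3 FPKM at day 3 and 0.910 and 0.440 FPKM at day 5 in Schwann cells, which were selected after depletion of CD45 and Thy1 positive cells. These differences thus rest on low and uneven levels in Schwann cells.

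Lower in whole nerve were Dab2 (-2.26), Fbln5 (-3.35), Ntm (-2.13), Cpxm1 (-1.88), Nrep (-1.12), Rhoj (-0.99), Robo1 (-2.61) and Pdgfrb (-0.95). Dab2 stood at 4.38 and 4.78 FPKM at day 3 and 19.9 and 17.9 FPKM at day 5 in Schwann cells. Mt2A differed by -2.44, Cryab by -1.30, Ndufa10l1 by -2.78, Gdnf by -1.29 and Spp1 by -0.93. Mybl2 (-1.12), Ifi30 (-0.98), Tuba1c (-0.66) and Rpl3 (-0.64) gave the remaining values. Of these differences 3 lost the call with the replicate block, 3 with upper quartile scaling and 9 to 18 without 1 library. Groups of 2 libraries are too small for a test of a single outlying library.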

How the results depend on the processing

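The count of 1828 called genes lay between 1482 (all 16 libraries in the fit) and 2682 (no filter on low counts) under the other scalings, filters, tools and sets of libraries, and was 432 with a 2-fold threshold added. Without 1 library it was 510 to 652. The count of 509 differences between whole nerve and Schwann cells became 1069 with DESeq2, 1341 without the filter, 974 in the 8 libraries of days 3 and 5 and 257 with the 2-fold threshold, and 126 to 314 without 1 library. The lower counts with a library left out come with a fit on fewer samples, and the cause of the other moves was not tested.

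With replicate number as a block, 2117 genes were called (1057 higher and 1060 lower) and 450 differences. Deviations of the same-numbered day 3 and day 5 libraries from their group means correlated at 0.0758 over genes, and other pairs of whole nerve groups at -0.040 to 0.057, so the numbers were not taken to pair the samples.

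Of 244 genes named, 167 were called, and each of these kept its direction under all alternatives run. Called genes that lost the call numbered 40 with all 16 libraries, 9 with DESeq2, 2 with median-of-ratios scaling and 1 without the filter, and 75 to 93 without 1 library. Genes without a call changed direction in 2 fits: Flt1 gave 0.012 in the 4 libraries of days 3 and 5 and 0.019 in all 16. Without 1 library, values of uncalled genes that crossed 0 ranged as follows on the log2 scale: Acaca from -0.29 to 0.096, Alas2 from -0.74 to 0.34, Axl from -0.056 to 0.091, Ckm from -2.66 to 1.99, Cldn1 from -0.016 to 0.16, Fasn from -0.30 to 0.17, Flt1 from -0.15 to 0.12, Fos from -0.16 to 0.037, Gap43 from -0.38 to 0.12, Ms4a2 from -0.0058 to 0.27, Mx1 from -0.87 to 0.28, Mylpf from -0.57 to 1.54, Nkd2 from -0.19 to 0.038, Robo1 from -0.27 to 0.0050, S100a9 from -3.21 to 1.12, Slit2 from -0.15 to 0.16, Snap25 from -0.091 to 0.17, Stmn2 from -0.78 to 0.067 and Uchl1 from -0.12 to 0.0011.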

Other observations

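The following genes come from outside the naming rule and were picked with their values in view. Of 18 tested genes of the circadian clock, 7 were called higher at day 5 and 1 lower, and 10 were not called, beside 5.68% and 5.87% of all genes. Nr1d1 and Nr1d2 encode the REV-ERB receptors that repress the clock activator Arntl. Nr1d1 stood at 5.63 and 4.61 FPKM at day 3 and 16.8 and 18.1 FPKM at day 5 (log2 fold change 1.77 ± 0.16 (SE), adjusted p = 0.000216), and both day 5 libraries lay above the 6.48 and 8.22 FPKM of day 7 and the 8.27 and 9.62 FPKM of uncrushed nerve. Per1, a repressor arm gene, stood at 1.12 and 1.31 FPKM at day 3 and 3.28 and 4.12 FPKM at day 5 (log2 fold change 1.60 ± 0.18 (SE), adjusted p = 0.000842). Its levels were 2.67 and 1.96 FPKM at day 7 and 3.71 and 4.27 FPKM in uncrushed nerve, the latter near those of day 5. The output regulators Dbp, Tef and Hlf and the activator Rora rose by 0.84, 0.60, 0.62 and 0.33 on the log2 scale. Cry1 fell by 0.82, and Arntl gave -0.53 (adjusted p = 0.0573). Calls of Nr1d1, Nr1d2 and Per1 held with each library left out, and those of Dbp, Tef, Hlf, Rora and Cry1 did not. In purified Schwann cells Nr1d1 stood at 19.9 and 19.2 FPKM at day 3 and 22.2 and 25.2 FPKM at day 5, without a call. The labels do not give the hour at which nerves were collected.

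Transcripts of the light and medium neurofilament chains, Nefl and Nefm, which are best known from neurons, also rose. Nefl stood at 11.7 and 36.8 FPKM at day 3 and 80.7 and 102 FPKM at day 5 (log2 fold change 1.91 ± 0.45 (SE), adjusted p = 0.0222) and Nefm at 8.68 and 21.5 FPKM at day 3 and 63.6 and 78.6 FPKM at day 5 (log2 fold change 2.24 ± 0.35 (SE), adjusted p = 0.00391). The day 3 libraries differed more than 2-fold between themselves in both genes. The call of Nefm held with each library left out and that of Nefl did not. Nefh was at or under 0.08 FPKM in all 4 libraries, Prph stood at 0.790 and 0.990 FPKM at day 3 and 0.530 and 0.730 FPKM at day 5, and Prph (-0.50), Tubb3 (-0.25), Stmn2 (-0.42), Snap25 (0.04), Uchl1 (-0.06) and Gap43 (-0.11) were not called. In purified Schwann cells Nefl stood at 70.5 and 65.8 FPKM at day 3 and 162 and 92.8 FPKM at day 5.

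Of 4 tested metallothioneins 3 fell, beside 5.87% of all genes called lower. Mt1 stood at 58.7 and 62.3 FPKM at day 3 and 34.6 and 32.6 FPKM at day 5 (log2 fold change -0.90 ± 0.20 (SE), adjusted p = 0.0183), and Mt2A (-2.35) and Mt1m (-2.38) were lower too, while Mt3 gave -0.91 (adjusted p = 0.315). At day 7 Mt2A stood at 51.7 and 47.3 FPKM and in uncrushed nerve at 16.5 and 14.4 FPKM. In Schwann cells Mt2A was at or under 20.3 FPKM at both days. The whole nerve call of Mt2A held with each library left out, and those of Mt1 and Mt1m did not.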
